A study of Homo sapiens with 2 samples.

Results

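The transcripts described here encode 10 regulators of cell cycle transcription: the E2F factors E2F1, E2F2, E2F4, E2F7 and E2F8, the pocket proteins RB1, RBL1 and RBL2, and the late cell cycle activators MYBL2 and FOXM1. They were taken by gene symbol, and all 10 were found among the 57326 symbols of the table. RNA-seq was done on 22Rv1, a castration-resistant human prostate cancer cell line. One group expressed a short hairpin RNA against EIF3F, which encodes a subunit of translation initiation factor eIF3 (shEIF3F), and the other a vector control for the hairpin (shCON). Each group had 1 library, and the labels give no time after the hairpin was introduced. The values therefore have no replicate check, no error and no test, and EIF3F depletion cannot be told apart from other effects of this hairpin.

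E2F factors bind promoters of genes for DNA replication. E2F1, E2F2 and E2F3 activate them, E2F4 and E2F5 mostly repress them together with pocket proteins, and E2F7 and E2F8 repress them late in S phase without a pocket protein. The pocket proteins RB1, RBL1 (p107) and RBL2 (p130) hold E2F factors in check until cyclin-dependent kinases phosphorylate them. In resting cells RBL2, E2F4 and the MuvB proteins form the DREAM complex, which represses genes of both S phase and mitosis. In cycling cells MuvB pairs instead with MYBL2 (B-MYB) and then with FOXM1, which activate the mitotic genes. E2F1, E2F2, E2F7, E2F8, RBL1 and MYBL2 are themselves known E2F targets.

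Promoter sequences show which members carry E2F binding words themselves. RefSeq windows from 250 bases before to 50 bases after a gene start, on GRCh38.p14, matched 8 of the 10 symbols. The window listed for RB1 belongs to a transcript start 172699 bases into the gene and is not used further. For the others with a window at the gene start, the 100 bases before the start are printed on the gene's strand, 5′ to 3′. Capitals mark an E2F word or the word GGCGGGA, on either strand. The E2F words were TTCCCGC as the plain form, with TTGGCGC as its best known variant, TTCGCGC as another and finally TTGCCGC as a further variant of the middle letters. GGCGGGA was added after the letters were seen and can overlap the reverse of the plain form.
E2F1, chr20:33686386-33686485, minus strand: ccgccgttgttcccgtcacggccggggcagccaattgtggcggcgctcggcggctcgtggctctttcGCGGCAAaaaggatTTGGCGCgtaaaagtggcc
E2F2, chr1:23531234-23531333, minus strand: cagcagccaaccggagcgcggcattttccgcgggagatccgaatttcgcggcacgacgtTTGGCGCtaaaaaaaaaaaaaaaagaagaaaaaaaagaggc
RBL1, chr20:37095998-37096097, minus strand: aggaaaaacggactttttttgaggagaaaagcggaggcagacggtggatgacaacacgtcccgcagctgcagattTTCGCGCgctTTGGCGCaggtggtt
E2F7, chr12:77065570-77065669, minus strand: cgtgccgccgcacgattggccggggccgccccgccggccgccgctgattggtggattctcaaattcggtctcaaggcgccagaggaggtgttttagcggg
MYBL2, chr20:43667014-43667113, plus strand: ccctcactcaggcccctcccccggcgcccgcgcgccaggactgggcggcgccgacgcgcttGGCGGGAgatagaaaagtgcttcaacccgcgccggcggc
E2F4, chr16:67192055-67192154, plus strand: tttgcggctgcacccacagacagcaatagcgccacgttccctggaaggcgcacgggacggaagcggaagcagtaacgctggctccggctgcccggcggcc
RBL2, chr16:53434371-53434470, plus strand: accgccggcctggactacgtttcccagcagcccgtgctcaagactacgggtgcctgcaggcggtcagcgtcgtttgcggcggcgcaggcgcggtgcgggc
E2F1 had an E2F word 33 to 27 bases before the start, on the reverse strand, and another 19 to 13 bases before it. E2F2 had an E2F word 41 to 35 bases before the start. RBL1 had a pair, 25 to 19 and 15 to 9 bases before the start. E2F7 also had a pair, but farther out, 176 to 170 and 133 to 127 bases before the start and so outside the printed stretch. MYBL2 held none of the E2F words but had GGCGGGA 39 to 33 bases before the start. GGCGGGA also occurred on the reverse strand 148 to 142 bases before the start of E2F1 and 210 to 204 bases before that of RBL1. The windows at the starts of E2F4 and RBL2 held no E2F word and no GGCGGGA. Over all 35116 windows of the same length, counted singly, 13.0% held an E2F word and 15.4% held GGCGGGA. A gene can have several windows, so these shares are not like for like with a count by gene. A match describes letters only and does not show that a factor binds there.

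Values are TPM, an abundance divided by transcript length and scaled to the total of its library, and read depth is unknown. EIF3F itself stood at 17.0 TPM in shEIF3F and 990.9 TPM in shCON, in the direction of the labels. The luminal keratin genes KRT8 (346.9 and 300.8 TPM) and KRT18 (335.8 and 173 TPM) were present in shEIF3F and shCON. The basal genes KRT5 and TP63 were listed at 0 in both libraries, the leukocyte gene PTPRC stood at 0.03 TPM in shEIF3F and 0.11 TPM in shCON, and the fibroblast genes COL1A1, COL1A2 and DCN summed to 6.02 TPM in shEIF3F and 15.6 TPM in shCON. What those fibroblast transcripts contribute to the results was not tested. Ratios are log2((shEIF3F TPM + 1) / (shCON TPM + 1)), and a gene is counted as higher or lower at 1 or more, or at -1 or less, a fixed rule of size. A gene is called measured where its TPM averaged at least 1 over both libraries, which held for 13305 genes. Their median ratio was -0.36, so ratios are also given relative to that median. Among measured genes the share lower in shEIF3F by 2-fold or more was 25.5%, and the share higher was 8.43%.

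MYBL2, E2F1, FOXM1, E2F2, E2F8 and E2F7 were lower in shEIF3F by 2-fold or more, 6 of the 10 members, and 0 were higher by that much, beside 25.5% and 8.43% of all measured genes. RBL1, RBL2 and E2F4 were lower by less than that on this scale, and RB1 alone was listed at a higher level. By the minimum above 9 members were measured. E2F7 and E2F8 reached it only through shCON, as did E2F2, and RBL1, at a mean of 0.75 TPM, did not. In the ratio of the deposited TPM values, with no pseudocount, 8 of the 10 were at least 2-fold lower, RBL1 and RBL2 included. The share over all genes was not computed without a pseudocount, so the 25.5% does not apply to that count. With a pseudocount of 0.1, 4046 of the 13305 measured genes were at least 2-fold lower. In bulk RNA, fewer cells in cycle and less of a transcript per cycling cell cannot be told apart.

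The activators E2F1 and E2F2 were among the lowest ratios of the table. E2F1, which drives entry into S phase, stood at 1.97 TPM in shEIF3F and 46.8 TPM in shCON. That is 4.21% of the control level, a log2 ratio of -4.01 and -3.65 relative to all genes, and rank 63 from the lowest of 13305 genes. E2F2 stood at 0.2 TPM in shEIF3F and 14.7 TPM in shCON, or 1.36% of the control level. Its log2 ratio was -3.71, or -3.35 relative to all genes, at rank 100. By deposited TPM E2F2 was 73.6-fold lower in shEIF3F and E2F1 23.8-fold lower, so the pseudocount sets which of the pair has the lower ratio. E2F3, the remaining activator, differed far less, at 2.45 TPM in shEIF3F and 3.75 TPM in shCON (log2 ratio -0.46, -0.10 relative to all genes). The level of E2F3 was above that of E2F1 in shEIF3F and below it in shCON.

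The atypical repressors E2F7 and E2F8 were low in both libraries and close to 0 in shEIF3F. E2F8 stood at 0.11 TPM in shEIF3F and 3.57 TPM in shCON (log2 ratio -2.04, -1.68 relative to all genes). E2F7 stood at 0.15 TPM in shEIF3F and 2.73 TPM in shCON (-1.70, -1.34 relative to all genes). At these levels the pseudocount governs the ratio: the deposited TPM of E2F8 was 32.5-fold lower in shEIF3F and that of E2F7 18.2-fold lower. With a pseudocount of 5 their log2 ratios were -0.75 and -0.59, inside the 2-fold limit. Both repressors stood low in the same library as the activators E2F1 and E2F2.

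E2F4, the main E2F of resting cells, differed little. It stood at 25.0 TPM in shEIF3F and 42.0 TPM in shCON, with a log2 ratio of -0.72, or -0.37 relative to all genes. With the trend of ratios on transcript GC content removed, its ratio was 0.021. E2F5, the other E2F that works with RBL1 and RBL2, was at least 2-fold higher, at 21 TPM in shEIF3F and 4.99 TPM in shCON (log2 ratio 1.88, 2.23 relative to all genes). Part of the E2F5 exons, 16.3% of their bases, lie opposite C8orf59, which stood at 97.1 TPM in shEIF3F and 46.2 TPM in shCON. Whether reads were counted by strand is not given in the sources used here, so reads of both genes may not have been told apart. E2F6, a repressor that acts with polycomb proteins rather than pocket proteins, stood at 4.66 TPM in shEIF3F and 6.59 TPM in shCON (-0.42, -0.07 relative to all genes).

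**Figure D1:**
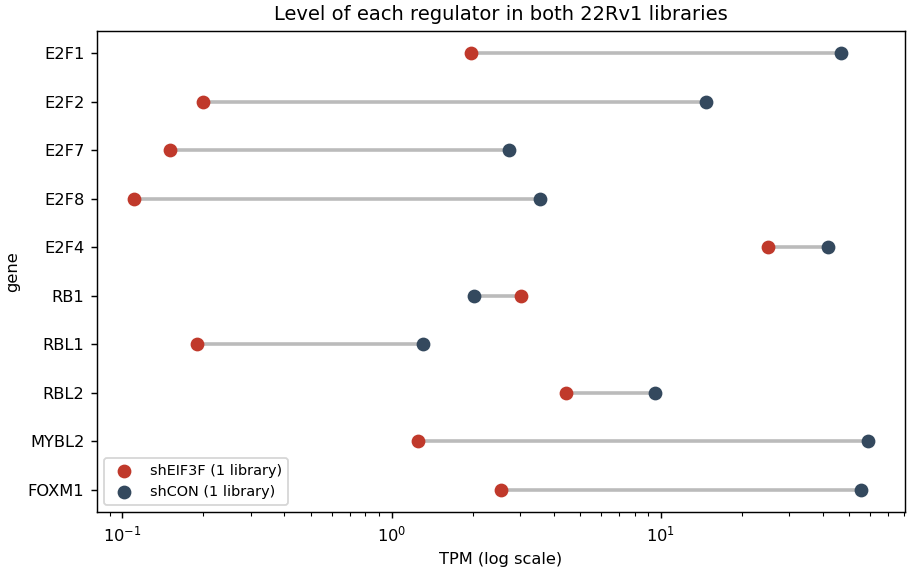
TPM of the 10 regulators (log axis, 1 gene per line), with shEIF3F in red and shCON in dark blue, 1 library each, and a grey line joining the pair. MYBL2, E2F1, FOXM1, E2F2, E2F8 and E2F7 have the long lines, E2F4 and RBL2 short ones, and RB1 is the only gene whose shEIF3F point lies to the right.

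The make-up of the E2F family differed between the libraries. Shares and ratios within a library do not depend on a factor applied to a whole library, whereas summed levels do. Removal of the trend on transcript GC content, which moves genes unequally, would change them. It moved the log2 ratio of E2F1 from -4.01 to -3.25 and that of E2F5 from 1.88 to 2.11. The shares below are without that removal. The transcripts of E2F1 to E2F8 summed to 55.6 TPM in shEIF3F and 125 TPM in shCON. The activators E2F1, E2F2 and E2F3 held 8.32% of that sum in shEIF3F and 52.2% in shCON. Their own summed level was 4.62 TPM in shEIF3F and 65.3 TPM in shCON. That of the repressors E2F4 and E2F5 was nearly equal, at 46.0 TPM in shEIF3F and 47.0 TPM in shCON. As shares, these repressors held 82.8% in shEIF3F and 37.5% in shCON. Most of that difference was E2F5, at 37.8% in shEIF3F and 3.99% in shCON, whose value is uncertain for the overlap given above, and E2F4 held 45.0% and 33.5%. With E2F5 left out, a step added after the data were seen, the activators held 13.4% in shEIF3F and 54.3% in shCON. E2F4 then held 72.4% in shEIF3F and 34.9% in shCON, though its level was 25.0 TPM and 42.0 TPM in that order. E2F7 and E2F8 together held 0.468% in shEIF3F and 5.03% in shCON. E2F1 had 0.0787 times the level of E2F4 in shEIF3F and 1.11 times that level in shCON. E2F4 had 1.19 times the level of E2F5 in shEIF3F and 8.41 times that level in shCON.

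**Figure D2:**
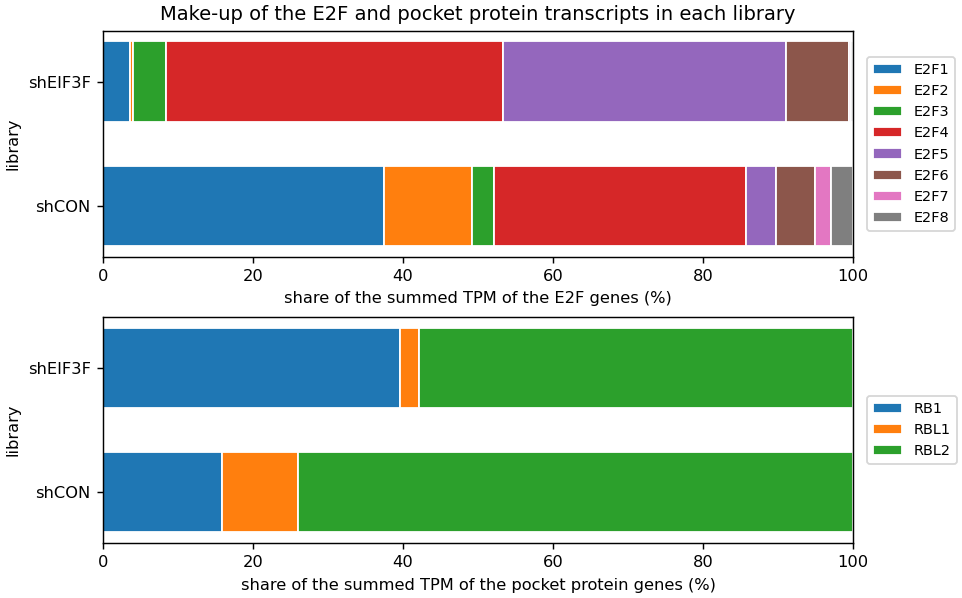
Share of each gene in the summed TPM of E2F1 to E2F8 (upper panel) and of the pocket protein genes (lower panel), in percent, with shEIF3F above shCON in each. E2F4 and E2F5 fill 82.8% of the upper shEIF3F bar and 37.5% of the shCON bar, at 46.0 and 47.0 summed TPM. RB1 fills 39.6% of the lower shEIF3F bar and 15.8% of the shCON bar.

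Of the DP proteins, which pair with E2F1 to E2F6 to bind DNA, both measured genes were lower. TFDP1, the main partner, stood at 21.6 TPM in shEIF3F and 64.3 TPM in shCON (log2 ratio -1.53, -1.17 relative to all genes). TFDP2 stood at 3.99 TPM in shEIF3F and 11.2 TPM in shCON (-1.29, and -0.93 relative to all genes, inside the 2-fold limit). TFDP3 was listed at 0 in both libraries. In the list of other E2F and DP genes, 2 of the 5 measured were at least 2-fold lower and 1 higher, beside 25.5% and 8.43% of all measured genes. Their median of -0.46 was near that of all genes, -0.36.

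The pocket protein genes differed in direction, but with the pseudocount of 1 all of them were inside the 2-fold limit. RB1, the retinoblastoma tumour suppressor, stood at 3.04 TPM in shEIF3F and 2.03 TPM in shCON, with a log2 ratio of 0.42, or 0.77 relative to all genes, and was inside the 2-fold limit. RBL1, the pocket protein that is made mainly in cycling cells, stood at 0.19 TPM in shEIF3F and 1.31 TPM in shCON, or 14.5% of the control level. Its log2 ratio was -0.96 with the pseudocount of 1 and -2.28 with a pseudocount of 0.1. RBL2, the pocket protein of resting cells, stood at 4.44 TPM in shEIF3F and 9.51 TPM in shCON (log2 ratio -0.95, -0.59 relative to all genes). By deposited TPM it was 2.14-fold lower in shEIF3F. Opposite 8.33% of the RBL2 exon bases lies AKTIP, which stood at 7.78 TPM in shEIF3F and 2.09 TPM in shCON.

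RBL2 was the most abundant pocket protein transcript in both libraries, but its margin over RB1 differed. RBL2 had 1.46 times the level of RB1 in shEIF3F and 4.68 times in shCON. RB1 had 16.0 times the level of RBL1 in shEIF3F and 1.55 times in shCON. As shares of the pocket protein sum, RB1 made up 39.6% in shEIF3F and 15.8% in shCON. RBL1 made up 2.48% in shEIF3F and 10.2% in shCON, and RBL2 57.9% in shEIF3F and 74.0% in shCON. The summed level of the 3 genes was 7.67 TPM in shEIF3F and 12.9 TPM in shCON.

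MYBL2 and FOXM1 stood at the top of the members in shCON and in the middle in shEIF3F. MYBL2 stood at 1.25 TPM in shEIF3F and 58.9 TPM in shCON, or 2.12% of the control level. Its log2 ratio of -4.74, or -4.38 relative to all genes, was the lowest of the members and rank 29 from the lowest of the table. FOXM1 stood at 2.55 TPM in shEIF3F and 55.6 TPM in shCON, or 4.59% of the control level (log2 ratio -3.99, -3.64 relative to all genes, rank 64). Their levels were near each other in shCON, where MYBL2 had 1.06 times that of FOXM1, against 0.49 times in shEIF3F. Opposite 15.9% of the FOXM1 exon bases lies ITFG2, at 7.53 TPM in shEIF3F and 9.9 TPM in shCON.

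The partners of MYBL2 had ratios nearer 0 than MYBL2. Of 7 genes for the MuvB core and the other MYB proteins, 6 were measured, and 3 of those were at least 2-fold lower, beside 25.5% of all measured genes, with a median of -0.87. After rescaling without the 100 most abundant genes 0 were. RBBP4, a histone-binding subunit that other chromatin complexes share, stood at 46.0 TPM in shEIF3F and 124 TPM in shCON (log2 ratio -1.41). LIN54, the subunit that contacts DNA, stood at 2.21 TPM in shEIF3F and 7.11 TPM in shCON (-1.34). LIN37, needed for repression by DREAM, stood at 8.18 TPM in shEIF3F and 17.9 TPM in shCON (-1.04), but shares exon bases on its own strand with another annotated gene, so its value is uncertain. The scaffold subunit LIN9 (-0.69) and LIN52 (-0.11), which bridges MuvB to pocket proteins or MYBL2, were inside the 2-fold limit. Relative to all genes RBBP4 was at -1.05 and was then the only gene of this list at least 2-fold lower.

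The other MYB genes were low in both libraries. MYB stood at 1.18 TPM in shEIF3F and 1.44 TPM in shCON (log2 ratio -0.16), and MYBL1 at 0.48 and 0.92 TPM (-0.38). MYBL2 held 43.0% of the summed TPM of the MYB genes in shEIF3F and 96.1% in shCON.

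The order of the members by TPM differed between the libraries. In shEIF3F it ran E2F4, RBL2, RB1, FOXM1, E2F1, MYBL2, E2F2, RBL1, E2F7 and E2F8. In shCON it ran MYBL2, FOXM1, E2F1, E2F4, E2F2, RBL2, E2F8, E2F7, RB1 and RBL1. With 1 library per group no spread is known, so neighbours such as MYBL2 and FOXM1 in shCON, or E2F2 and RBL1 in shEIF3F, cannot be ranked against error. E2F4 and the pocket proteins RBL2 and RB1 led in shEIF3F, where the 10 members summed to 38.9 TPM, against 237 TPM in shCON.

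Genes with the most similar levels were found by the distance in log2(TPM + 1) over both libraries, which describes 2 points per gene and no more. Nearest to E2F1 were RACGAP1, which acts in cytokinesis, at 2.13 TPM in shEIF3F and 44.7 TPM in shCON (distance 0.0995), the spindle factor TPX2 (0.152) and the histone chaperone subunit CHAF1A (0.226). Nearest to FOXM1 were AC087632.1, an annotated locus without a gene name, at 2.41 and 58.7 TPM (0.0976), then E2F1 (0.354) and RACGAP1 (0.357). Nearest to RB1 were CDKN2AIP, at 3.09 and 2.03 TPM (0.0177), FEM1B (0.0202) and LINC01852 (0.022).

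Cyclins, cyclin-dependent kinases and their inhibitors set the phosphorylation of the pocket proteins. Of 17 such genes, 14 were measured, and 11 of those were at least 2-fold lower and 1 higher, with a median of -1.66 against -0.36 for all genes. The shares over all measured genes were 25.5% and 8.43%. Of the 14, 3 reached the minimum only through shCON. Relative to all genes 8 were lower and 1 higher, beside 16.0% and 14.7% of all measured genes. The higher gene was CDKN1A, which encodes the kinase inhibitor p21, at 989 TPM in shEIF3F and 90.5 TPM in shCON (log2 ratio 3.44). CDK2, the partner of cyclin E and cyclin A, stood at 9.6 TPM in shEIF3F and 67.0 TPM in shCON (-2.68), so that CDKN1A had 103 times the level of CDK2 in shEIF3F and 1.35 times in shCON. CDK4, the partner of D-type cyclins, stood at 51.0 TPM in shEIF3F and 418 TPM in shCON (-3.01), and CCNA2, which encodes cyclin A, at 0.69 and 20.9 TPM (-3.70). CDKN2D, an inhibitor of CDK4 and CDK6, was also lower, at 1.93 TPM in shEIF3F and 31.6 TPM in shCON (-3.48). So were the inhibitor genes CDKN2C (-2.15), CDKN1B (-1.64), CDKN2A (-1.34) and CDKN1C (-1.21), named after their values were seen. The lower genes of this list thus include inhibitors as well as cyclins and kinases. Relative to all genes CDKN2A (-0.98) and CDKN1C (-0.86) were inside the 2-fold limit. Cyclin D gene CCND1, named after its values were seen, stood at 333 TPM in shEIF3F and 409 TPM in shCON (-0.30), within 2-fold. CCNE1, which encodes cyclin E and was also named after its values were seen, stood at 1.69 TPM in shEIF3F and 8.38 TPM in shCON (-1.80).

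Of 11 corepressors that pocket proteins bring to promoters, 10 were measured and 2 of those were at least 2-fold lower, near the 25.5% of all measured genes. Their median was -0.83. The histone methyltransferase gene SUV39H1 had the lowest ratio, at 0.36 TPM in shEIF3F and 4.79 TPM in shCON (log2 ratio -2.09). SIN3B, a scaffold of histone deacetylase complexes, stood at 6.57 TPM in shEIF3F and 14.7 TPM in shCON (-1.05). The related scaffold SIN3A (-0.92) and the deacetylases HDAC1 (-0.90) and HDAC3 (-0.85) were inside the limit. Relative to all genes SUV39H1 was the only one at least 2-fold lower.

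Genes known as targets of the members were counted in a pair of textbook lists, drawn up with earlier results of these data known, so the counts are not independent evidence. Of 34 G1/S targets of E2F, 34 were lower in shEIF3F by 2-fold or more, beside 25.5% of all measured genes. All 34 were measured, 9 of them only through shCON, since they stood below 1 TPM in shEIF3F. They had ratios from -6.11 to -1.09 and a median of -2.94. Their summed level was 338 TPM in shEIF3F and 2507 TPM in shCON. The lowest were the thymidine kinase gene TK1 (-6.11), RRM2, which encodes a subunit of ribonucleotide reductase, at 2.07 TPM in shEIF3F and 85.8 TPM in shCON (-4.82), and CDC45 (-4.49), GINS4 (-4.43) and GINS2 (-4.03) of the replicative helicase. Of 37 G2/M targets of MYBL2 and FOXM1, 35 were measured, 19 of them only through shCON, which had to differ for that reason. All 35 were lower by 2-fold or more, beside 25.5% of all measured genes. Without the minimum, 36 of the 37 were lower by 2-fold or more, beside 3621 of 51273 genes. The measured genes had ratios from -5.78 to -1.02 and a median of -3.33. Their list summed to 69.4 TPM in shEIF3F and 1696 TPM in shCON. The mitotic kinase genes PLK1, at 2.02 TPM in shEIF3F and 94.8 TPM in shCON (-4.99), and AURKB, at 3.01 and 114 TPM (-4.85), were among the lowest, with BIRC5 (-5.78), UBE2C (-5.26) and CDC20 (-4.86). Relative to all genes 31 of the 34 and 34 of the 35 were at least 2-fold lower, beside 16.0% of all measured genes. Of the G2/M list ASPM and CENPE were below the minimum and stood at 0.03 and 0.01 TPM in shEIF3F and at 1.18 and 0.41 TPM in shCON.

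**Figure D3:**
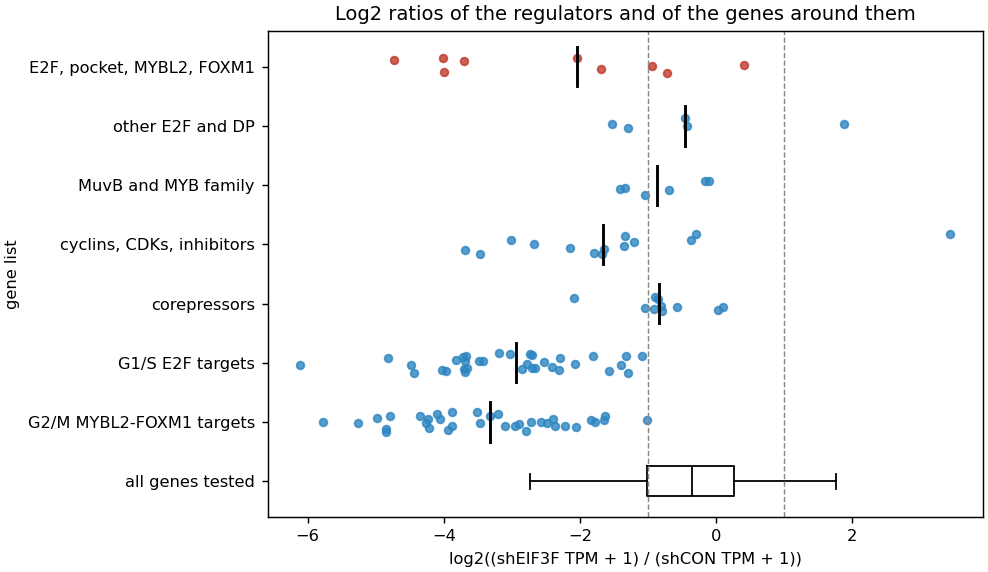
Log2 ratio, shEIF3F over shCON, of measured genes, 1 point per gene, with a black bar at each list's median and dashed lines at 2-fold. The box for all 13305 genes shows the quartiles and median, with whiskers over the central 95%. The regulators (red) span -4.74 to 0.42, and both target lists lie wholly at or below -1.02.

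The promoter windows of the target lists held different words. List shares count genes with a word in any of their windows, whereas all 35116 windows were counted singly, so the shares are not like for like. An E2F word was found in 25 of the 29 G1/S targets with a window (86.2%) and in 10 of the 32 G2/M targets (31.3%), against 13.0% of all windows. Counted by gene, 9310 measured genes had a window. Of those, 1995 held an E2F word without a CHR word (defined next), 954 a CHR word without an E2F word, and 375 both. The cell cycle genes homology region, or CHR, is the element that MuvB binds, searched as TTTGAA, or the variant with a changed middle letter, TTCGAA, on either strand. It was found in 2 G1/S targets (6.90%) and 25 G2/M targets (78.1%), against 16.4% of all windows. The E2F words of the G1/S targets had a median position of 33 bases before the start, and the CHR words of the G2/M targets of 26 bases before it. A CCAAT box, searched as CCAAT on either strand, was found in 69.0% of the G1/S and 81.3% of the G2/M targets, and in 34.6% of all windows. Among the members it occurred in the windows of E2F1 and E2F7, and in a window of RBL2 that lies 1148 bases downstream of the gene start. The CHR word occurred among the members once, 25 to 30 bases after the start of RBL2.

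**Figure D4:**
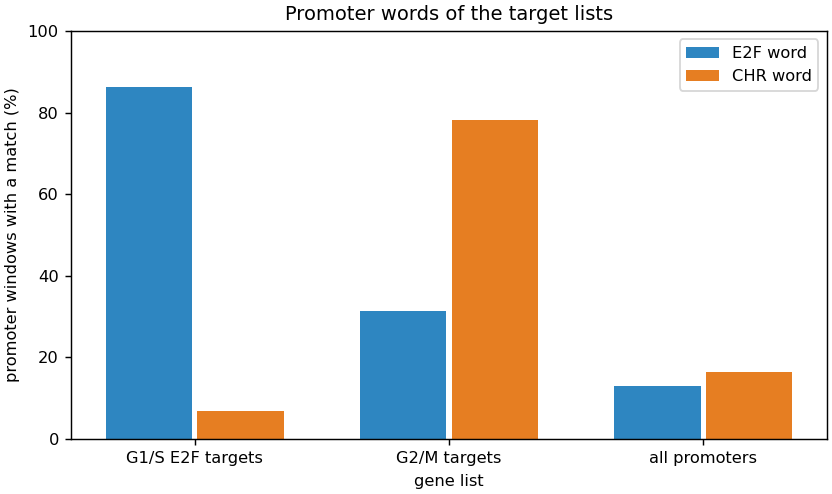
Share with at least 1 E2F word (blue) or CHR word (orange), in percent. The G1/S and G2/M bars count genes with a match in any window, and the bars for all promoters count 35116 single windows. E2F words were found in 86.2% of the G1/S genes with a window and CHR words in 78.1% of the G2/M genes. The shares of all single windows were 13.0% and 16.4%.

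Over the whole table genes were also split by these words. Of the measured genes, 9310 had a promoter window, and 25.4% of those were at least 2-fold lower. The 1995 with an E2F word and no CHR word had a median log2 ratio of -0.53, with 29.9% at least 2-fold lower. The 954 with a CHR word and no E2F word had a median of -0.26, with 24.5% lower. The 375 with both words had a median of -0.42, with 30.4% lower. The 5986 with neither had a median of -0.34, with 23.7% lower. With the GC trend removed these medians were -0.15, -0.042, -0.16 and 0.010. The 734 with a CHR word and a CCAAT box, which overlap these classes, had a median of -0.29, with 213 genes lower. A gene with 2 or more windows was counted as holding a word if any window did, and this split was made after the data were seen.

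Transcript GC content differed among the members and moved with the ratios over the table. MYBL2 (60.5%), E2F1 (62.5%), E2F4 (58.1%), E2F2 (57.5%) and FOXM1 (55.6%) were above the median of 50.5% over the measured genes. RB1 (37.3%), RBL1 (40.0%), E2F7 (43.1%), RBL2 (43.2%) and E2F8 (45.9%) were below it. E2F4 and E2F2, with nearly equal GC content, had ratios of -0.72 and -3.71. With the GC trend removed the ratios were -4.01 for MYBL2, -3.52 for FOXM1, -3.26 for E2F2, -3.25 for E2F1, -1.87 for E2F8 and -1.68 for E2F7, and the same 6 members stayed at least 2-fold lower. RBL1 was then at -0.94, RBL2 at -0.93 and RB1 at 0.35.

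**Figure D5:**
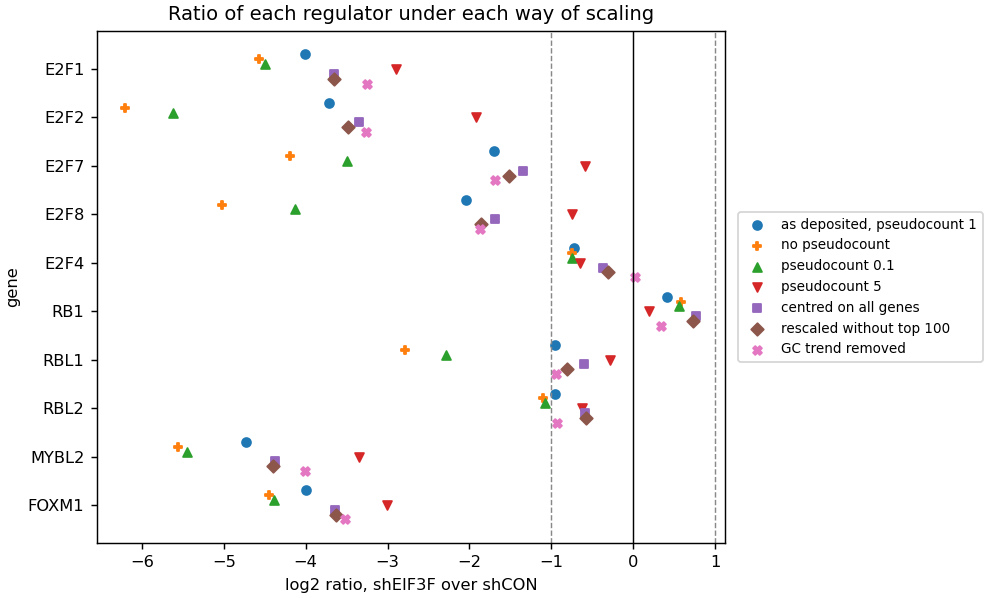
Log2 ratio of each regulator, shEIF3F over shCON, under 7 ways of scaling (symbols), with dashed lines at 2-fold and a solid line at 0. MYBL2, E2F1, FOXM1 and E2F2 lie left of -1 under all 7, E2F7 and E2F8 under all but the pseudocount of 5, and RB1 lies right of 0 under all 7.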

How the data were processed

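Total RNA was extracted with Trizol and made into libraries with an Illumina TruSeq RNA kit, per the labels' protocols. The authors deposited 1 table of TPM values, a column per library, rounded to 2 decimals. Per the submitters' processing notes, CASAVA and HISAT2 (no versions) and the build hg19 were used. How genes were counted, from which annotation and whether by strand is not given in the sources used here. Columns were matched to shEIF3F and shCON through the sample descriptions.

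Of 58884 entries, 27 with symbols turned into dates were left out, repeated symbols were summed, and 6053 symbols of small RNA genes were left out. Transcript GC content, exon overlap and gene type came from GENCODE release 29, by symbol (98.7% matched), and promoter windows from RefSeq on GRCh38.p14. Named genes were all members, EIF3F, every gene of the short lists and, of longer lists, the 5 with the largest absolute log2 ratio and any past 2-fold the other way. Members and lists were chosen with earlier results of these data known. Ratio and centring steps were tested on simulated data. Python 3.11.15, NumPy 2.4.6, pandas 2.3.3 and matplotlib 3.10.9 were used. Alternatives are given in the closing section.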

Additional observations from a re-analysis of the deposited data

How the results depend on the processing

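Under 8 alternatives, 4 to 7 of the members were lower by 2-fold or more and 0 higher. With a pseudocount of 5 the count was 4 of 9 members, beside 1898 of 13305 genes. With a mean of 5 TPM it was 4 of 6, beside 2374 of 8205 genes. With a pseudocount of 0.1 it was 7 of 9, beside 4046 of 13305 genes. With no pseudocount, added after the data were seen, 8 of 10 were lower, and no count over all genes was made. Of 70 member ratios under an alternative, 64 stayed on their side of the limit. E2F7 and E2F8 moved inside it with a pseudocount of 5, and RBL1 and RBL2 moved past it with a pseudocount of 0.1 or none. The members' median of -2.04 was -0.75 with a pseudocount of 5. Counts of all genes at least 2-fold lower, 3399 as deposited, were 2130 after centring on the median, 2136 after rescaling without the 100 most abundant genes, 1838 with the GC trend removed and 1898 with a pseudocount of 5. Counts higher, 1122 as deposited, were 1956, 1977, 1756 and 473 in the same order, and 614 with the minimum raised to 5 TPM. Of MuvB and MYB genes, 3 were lower as deposited, against 0 after rescaling and 1 each after centring or with a pseudocount of 5. Of other E2F and DP genes, 2 were lower as deposited and 1 under each of these. Of corepressors, 2 were lower as deposited, 0 with a pseudocount of 5, and 1 under centring, rescaling, removal of the GC trend or the raised minimum. The cause was not tested. No paired analysis was possible because each group has 1 library. TPM keeps no read number, so the precision of values below 1 TPM is unknown.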
